A study of Mus musculus with 10 samples.

Results

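Small nucleolar RNA (snoRNA) genes were followed through RNA sequencing libraries of mouse mammary tumors and of macrophages sorted from them. The members were chosen by their measured mean level: they are the rows that the deposited tables annotate as snoRNA and that reached a mean of 1 CPM in at least 1 table, where CPM is a count scaled to a library total of 1000000 reads on listed genes. This rule gave 217 members among 24616 genes listed in either table, of which 208 passed in the macrophage table, 164 in the tumor table and 155 in both. The symbol Snord marked 82 members as C/D box RNAs, 11 of which are copies of U3, and the symbol Snora marked 27 as H/ACA box RNAs. The other 108 carry no class in their symbol. Because the level itself chose the members, levels are given as a description. Sums, ratios and differences between the tables are over the 155 members of both, and statements within a table are over the members of that table.

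The tumors came from MMTV-PyMT mice, in which the polyoma middle T oncogene is expressed in the mammary epithelium, on a B6 background at 15 weeks of age. All mice carried floxed alleles of the chemokine receptor gene Cxcr4 (Cxcr4fl/fl). The mice called cKO also carried LysmCre, a Cre recombinase driven by the LysM promoter of myeloid cells, and the controls were littermates with no Cre. Macrophages sorted on F4/80 and CD11b were sequenced from 3 cKO mice (725, 746 and 867) and 3 controls (706, 720 and 775), and size-matched whole tumors from 2 cKO mice (725 and 746) and 2 controls (706 and 720), so that 4 mice gave a library to both tables. The extraction protocol in the labels describes frozen tumor pieces for every sample, ribosomal RNA was depleted, and the labels name no batch.

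SnoRNAs act in the nucleolus as guides for the chemical modification of ribosomal RNA. C/D box RNAs bind fibrillarin and direct ribose methylation, H/ACA box RNAs bind dyskerin and direct the formation of pseudouridine, and a small group (U3, U8, U13, U14, U22 and the U17 RNA Snora73) is needed for the cleavage and folding of the ribosomal RNA precursor. Most are cut out of introns of host genes that encode ribosomal proteins or long noncoding RNAs, while U3, U8 and U13 have promoters of their own.

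The members that carry most of the reads, or that differ most between the tables, are shown first. The sequences are GENCODE vM21 transcripts of GRCm38, 5′ to 3′. Capitals mark, for C/D box RNAs, the C box letters TGATGA within the first 25 bases and the D box letters CTGA within the last 15, and for H/ACA box RNAs the letters ACA within the last 7, all on the given strand. The 2 U3 sequences are shown because U3 took the largest part of the reads. The annotation names the chromosome 11 copies Rnu3b1 to Rnu3b4, and these share 1 sequence, apart from a last base that the longer entry of each copy adds. The 215-base entry is shown, in lower case throughout. The tables list them as Snord3b1 to Snord3b4 under other identifiers, so they were matched by symbol and by length (215 and 216 bases) only.
Rnu3b1 (chr11:87443237-87443451, + strand): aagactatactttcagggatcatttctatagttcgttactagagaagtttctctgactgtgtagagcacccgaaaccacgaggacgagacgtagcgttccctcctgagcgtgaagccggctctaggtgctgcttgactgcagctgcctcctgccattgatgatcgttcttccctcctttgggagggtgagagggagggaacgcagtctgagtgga
Snord3a (chr10:40258467-40258679, + strand): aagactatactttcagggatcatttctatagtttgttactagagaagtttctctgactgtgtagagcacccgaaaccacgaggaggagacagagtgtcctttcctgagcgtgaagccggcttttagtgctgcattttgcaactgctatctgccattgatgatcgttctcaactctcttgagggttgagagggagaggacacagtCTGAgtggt
After U3, the C/D box RNAs of highest mean level in macrophages were Snord17, in an intron of Snx5, and Snord83b, in an intron of Rpl3.
Snord17 (chr2:144265979-144266216, - strand): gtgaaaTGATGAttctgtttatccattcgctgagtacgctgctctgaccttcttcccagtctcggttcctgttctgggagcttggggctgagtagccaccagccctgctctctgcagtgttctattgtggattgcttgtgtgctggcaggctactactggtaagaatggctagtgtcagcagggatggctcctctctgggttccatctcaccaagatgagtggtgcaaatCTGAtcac
Snord83b (chr15:80078498-80078591, - strand): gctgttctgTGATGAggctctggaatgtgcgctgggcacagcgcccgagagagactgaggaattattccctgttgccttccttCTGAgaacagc
Of the H/ACA box RNAs of high mean level in tumors, Snora30 lies in an intron of Gm42715 and Srcap, and Snora61 and Snora3 overlap exons of host transcripts of Snhg12 and Rpl27a.
Snora30 (chr7:127527874-127528003, + strand): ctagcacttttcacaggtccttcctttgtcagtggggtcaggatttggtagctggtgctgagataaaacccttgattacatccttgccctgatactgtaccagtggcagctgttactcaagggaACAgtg
Snora61 (chr4:132310240-132310369, + strand): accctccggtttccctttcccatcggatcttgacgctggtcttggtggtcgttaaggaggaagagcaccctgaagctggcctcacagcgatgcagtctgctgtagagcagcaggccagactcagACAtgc
Snora3 (chr7:109520120-109520251, + strand): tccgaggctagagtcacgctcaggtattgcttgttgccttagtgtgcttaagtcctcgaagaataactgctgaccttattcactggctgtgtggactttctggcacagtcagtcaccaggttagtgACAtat
The last set holds 2 of the U14 RNAs of Hspa8, of which Snord14d had the lowest tumor level relative to macrophages of all members, Gm24044 of Rpsa, which had the highest on the CPM scale, and Gm23201 and Gm25878 of Zfas1 and Gm23451 of Top2a, which are described with the comparison of the genotypes.
Snord14d (chr9:40803995-40804080, + strand): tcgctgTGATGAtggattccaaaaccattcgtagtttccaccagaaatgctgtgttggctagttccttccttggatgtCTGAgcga
Snord14e (chr9:40804748-40804837, + strand): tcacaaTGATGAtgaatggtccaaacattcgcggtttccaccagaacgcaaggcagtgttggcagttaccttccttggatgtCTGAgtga
Gm24044 (chr9:120128780-120128935, + strand): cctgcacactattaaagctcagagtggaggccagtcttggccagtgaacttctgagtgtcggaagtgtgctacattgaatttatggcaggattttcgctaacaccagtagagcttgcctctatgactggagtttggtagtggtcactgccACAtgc
Gm23201 (chr2:167064998-167065086, + strand): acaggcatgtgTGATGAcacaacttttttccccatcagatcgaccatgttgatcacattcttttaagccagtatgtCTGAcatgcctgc
Gm25878 (chr2:167063473-167063565, + strand): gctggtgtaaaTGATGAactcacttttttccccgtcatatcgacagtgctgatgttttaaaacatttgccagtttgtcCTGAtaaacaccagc
Gm23451 (chr11:99017031-99017152, - strand): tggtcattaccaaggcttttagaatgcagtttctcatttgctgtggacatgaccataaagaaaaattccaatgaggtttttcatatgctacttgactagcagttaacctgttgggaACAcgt

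The searched letters followed the names. Both boxes C and D were found in 63.0% of the 73 C/D box members with an annotated sequence, in 0 of the 27 H/ACA box members, in 39.8% of the 103 members without a class in their symbol, and in 20.3% of all 1507 annotated snoRNA genes. The ACA letters were found in 92.6% of the H/ACA box members, 8.22% of the C/D box members, 40.8% of the members without a class and 46.0% of all annotated snoRNA genes. Gm24044 and Gm23451 therefore carry the ACA letters, and Gm23201 and Gm25878 carry both boxes, although their symbols name no class. Median annotated length was 84 bases for C/D box members, 137 for H/ACA box members and 85 for the others. Of the 203 members found in the annotation, 90 lay in an intron, 105 overlapped an exon of at least 1 host transcript and 8 had no host. For those that overlap an exon, reads of the host transcript and of the snoRNA cannot be told apart. A stretch of 25 bases was shared with another snoRNA gene by 79 of the 203, so the level of a single copy is uncertain for these. The 2 Snord50 pairs with the same sequence, Snord50a with Gm24463 and Snord50b with Gm26135, show this: in macrophages Snord50a was listed at a mean of 2332 CPM and Gm24463 at 2333 CPM.

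The step between low values, which is the worth of 1 read, gave depths of 14.4 M to 25.1 M reads (M, 1000000) in the macrophage libraries and 34.2 M to 53.4 M reads in the tumor libraries. Protein-coding genes took 67.7% to 80.1% of listed reads in macrophages and 49.7% to 56.5% in tumors, and spliceosomal and other snRNAs took 2.05% to 6.76% and 15.6% to 24.0%, so a CPM value stands for a different share of the messenger RNA in the 2 tables. The 8 macrophage markers summed to 834 to 1935 CPM in the sorted libraries and 84.7 to 96.0 CPM in the tumors, and the lowest sorted library was control 775. The 8 epithelial markers summed to 3510 to 7229 CPM in the sorted libraries, with only Csn2 or Wap at 0 in any of them, and 5268 to 7333 CPM in the tumors. The sorted libraries thus also hold RNA of epithelial genes. The epithelial sum was above the macrophage sum in every sorted library, and its range overlapped that of the tumors. The part of this RNA in the snoRNA levels, and in the ratios of tumor to macrophage level below, was not tested. The level of Cxcr4 itself did not separate the macrophage groups: it stood at 24.1 to 165 CPM in those labelled cKO (mean 77.1 ± 76.8, SD, n = 3) and at 14.4 to 135 CPM in control macrophages (mean 68.0 ± 61.6, SD, n = 3). It was at 52.7 ± 6.83 CPM in cKO and 31.6 ± 2.52 CPM in control tumors (SD, n = 2 each), so the label cKO is used below without the deletion having been seen in the data.

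The 155 members of both tables took overlapping shares of reads in macrophages and tumors, but of a different make-up. They held 11.1%, 7.19% and 12.8% of listed reads in control macrophages 706, 720 and 775 and 10.7%, 6.77% and 7.10% in cKO macrophages 725, 746 and 867. In tumors they held 12.8% and 13.1% in controls 706 and 720 and 14.3% and 10.9% in cKO 725 and 746. The ranges of the 2 tables overlapped. U3 made up 39.6% to 55.6% of these reads in macrophages and 84.2% to 89.3% in tumors, with no overlap. The 49 other C/D box members went the other way, at 1.496% to 3.48% of listed reads in macrophages and 0.625% to 0.867% in tumors. The 74 members without a class held 1.40% to 3.22% and 0.641% to 0.903%. The 21 H/ACA box members held 0.138% to 0.349% in macrophages and 0.238% to 0.298% in tumors, and these ranges overlapped.

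**Figure D1:**
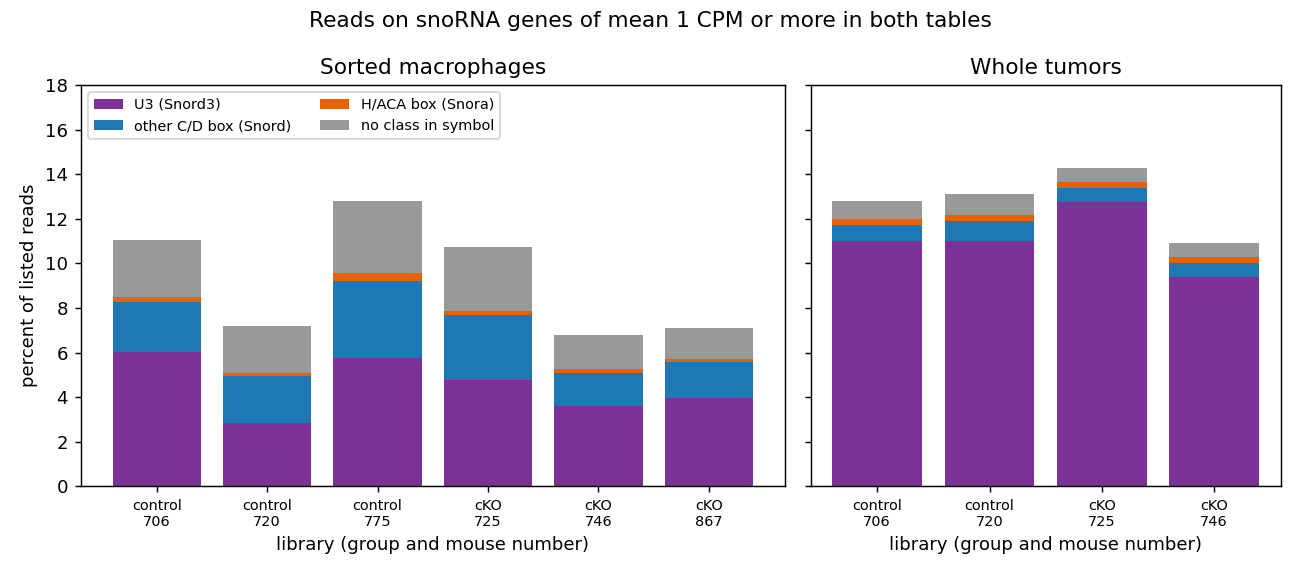
Percent of listed reads (y axis) on the 155 snoRNA members of both tables in each of the 10 libraries (x axis, group and mouse number), stacked by class. U3 fills most of each tumor bar (84.2% to 89.3% of the reads shown), while other C/D box members and members without a class take a larger part of the macrophage bars.

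Ratios of one class to another within a library do not depend on the scaling. Over the same members, the 49 C/D box members other than U3 held 9.98 to 15.2 times the reads of the 21 H/ACA box members in the 6 macrophage libraries and 2.48 to 3.16 times in the 4 tumor libraries. With U3 included, the ratio of C/D to H/ACA box reads was 26.4 to 41.6 in macrophages and 39.7 to 52.2 in tumors, and these ranges overlapped. Reads on U3 were 1.36 to 2.68 times those on all other C/D box members in macrophages and 12.7 to 20.1 times in tumors. Per 100 bases of annotated length, summed over the rows of a class, the U3 rows held 1899 ± 528 CPM (SD, n = 6) in macrophages and 4664 ± 578 CPM (SD, n = 4) in tumors. The other C/D box members held 524 ± 174 and 164 ± 25.9 CPM, and the H/ACA box members 68.8 ± 27.5 and 90.3 ± 8.87 CPM. The summed U3 length counts 1 sequence again for each of the 8 chromosome 11 rows. The U3 value is thus per row and understates the level per length of U3 as 1 RNA. The tables were normalized apart, so no test was run between them.

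U3, which base-pairs with the ribosomal RNA precursor and starts the processing of the small subunit, was the most abundant member in both tables. Its 8 chromosome 11 rows, summed because reads cannot be assigned among copies of 1 sequence, were at 53277, 24745 and 50635 CPM in control macrophages 706, 720 and 775 and at 40930, 31572 and 33595 CPM in cKO macrophages 725, 746 and 867. In tumors the sum was 101104 and 99226 CPM in controls 706 and 720 and 117815 and 84910 CPM in cKO 725 and 746. Every tumor library was above every macrophage library, and cKO and control libraries overlapped in both tables. The means were 39126 ± 11229 CPM (SD, n = 6) and 100764 ± 13473 CPM (SD, n = 4). Snord3a, the chromosome 10 copy, whose sequence is identical to the chromosome 11 sequence at 184 of 215 aligned positions (85.6%), stood in 2 rows that together held 5816 ± 1405 CPM in macrophages and 9630 ± 960 CPM in tumors. Its range was 3762 to 7067 CPM in macrophages and 8773 to 10956 CPM in tumors, again without overlap. The last U3 row, Snord3b-ps1, was at a mean of 1.89 CPM and 6.80 CPM.

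The other RNAs of precursor cleavage did not follow U3. U14, which also guides a methylation of the small-subunit RNA, is encoded in introns of the heat-shock protein gene Hspa8. Its 3 members Snord14c, Snord14d and Snord14e together held 934, 1145 and 1603 CPM in control macrophages 706, 720 and 775, 1337, 788 and 1055 CPM in cKO macrophages 725, 746 and 867, and 36.8, 37.6, 21.1 and 27.0 CPM in tumors 706, 720, 725 and 746. The lowest macrophage library thus stood far above the highest tumor library. Snord14d was 67.7-fold and Snord14c 47.7-fold lower in the tumor on the log2(CPM + 1) scale (log2 ratio -6.08 ± 1.11 and -5.58 ± 1.10, SD over 4 mice), and Snord14e was lower by 2.44 on that scale. Hspa8 itself was at 1130 ± 134 CPM in macrophages and 185 ± 17.9 CPM in tumors, a log2 ratio of -2.67.

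U22 (Snord22, in Snhg1) was a member in macrophages only, at 10.6 to 49.4 CPM there. U13 (Snord13) was at a mean of 15.9 CPM in macrophages and 3.78 CPM in tumors. U8 (Snord118), which is needed for the large-subunit RNAs, was at 5.09 CPM and 1.52 CPM. Snora73a, a U17 RNA in Rcc1, was at 50.6 CPM in macrophages and 53.3 CPM in tumors, with overlapping libraries. Its neighbor Snora73b was a member in macrophages only, at a mean of 1.28 CPM. Unlike U3, none of U14, U13, U8 and Snora73a stood above its macrophage range in all 4 tumors. The level of U8 lay under the worth of 3 reads in a cKO tumor.

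Among the guide RNAs, Gm25789 of Gas5 had the highest level per length of the rows outside U3 in macrophages (5788 CPM per 100 bases) and in tumors (1398 CPM per 100 bases). Its values were 4372, 4021 and 6234 CPM in control macrophages 706, 720 and 775, 7005, 2325 and 2438 CPM in cKO macrophages 725, 746 and 867, and 1189.7, 1328, 796 and 936 CPM in tumors 706, 720, 725 and 746. All macrophage libraries were above all tumor libraries. Snord83b was at 1841 to 3737 CPM in macrophages and 384 to 604 CPM in tumors, Snord50a at 1256 to 3407 and 310.0 to 799.6 CPM, and Snord12 of Zfas1 at 1253 to 3057 and 374 to 566 CPM. Snord17 was an exception among the C/D box RNAs of high level, at 1733 to 4844 CPM in macrophages and 1828 to 2686 CPM in tumors, which overlapped. Snord17 is also the longest C/D box member, with 238 bases. Snord111 of Sf3b3, with 89 bases, was a similar case, at means of 1041 CPM in macrophages and 731 CPM in tumors. Its log2 ratio of tumor to macrophage level was -0.23, beside -0.24 for Snord17.

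The H/ACA box RNAs of highest level did not all lie in 1 direction. Snora30 was at 644, 389 and 1397 CPM in control macrophages 706, 720 and 775, at 679, 392 and 338 CPM in cKO macrophages 725, 746 and 867, and at 1136, 1471, 1429.9 and 1375 CPM in tumors 706, 720, 725 and 746. It was higher in the tumor in all 4 mice that had both libraries, and only control macrophage 775 reached the tumor range. Snora3 stood further apart, at 8.02 to 24.2 CPM in macrophages and at 99.4 to 171.9 CPM in tumors. Snora61 went the other way, at 662 to 1451 CPM in macrophages and 482 to 636 CPM in tumors, without overlap.

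Within the same mouse, the classes differed in direction. Of the 155 members of both tables, 83 were lower in the tumor in all 4 mice and 36 were higher in all 4, against a background of 34.3% of 13783 genes lower and 11.5% higher. The 36 include the 11 U3 rows, most of which repeat 1 sequence. Without U3, 83 of 144 members were lower in all 4 mice and 25 higher. The median log2 ratio of tumor to macrophage was -1.11 for all 155, beside -0.36 for all 13783 genes. It was 1.46 for the 11 U3 rows, all higher in all 4 mice, -2.02 for the 49 other C/D box members, 0.91 for the 21 H/ACA box members and -1.06 for the 74 members without a class. Of the 49 C/D box members 39 were lower in all 4 mice and 1, Snord72 of Rpl37, was higher. Of the 21 H/ACA box members 11 were higher in all 4 mice and 4 lower. Rescaling each library to its protein-coding total moved the median of all genes to 0.11 and that of the 155 members to -0.69, with 69 members lower (44.5%, background 18.9%) and 38 higher (24.5%, background 25.4%), so the share of higher members was then near the background. Without the U3 rows, 69 of 144 were lower on this scale (47.9%) and 27 higher (18.75%), the latter share under the background. The same rescaling moved the medians of U3 to 2.01, other C/D box members to -1.49 and H/ACA box members to 1.44, with 33 C/D box members lower in all 4 mice and 12 H/ACA box members higher. The order of the classes was the same in each of the 4 mice, with medians of -1.70 to -2.95 for C/D box members without U3 and 0.35 to 1.17 for H/ACA box members. In bulk libraries, fewer cells of a type and less RNA per cell cannot be told apart.

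Members at the extremes of each class show the span. Among members without a class, the lowest in the tumor were Gm23344 of Rpl4, at 366 to 937 CPM in macrophages and 9.46 to 27.8 CPM in tumors (log2 ratio -5.28), Gm24357 of Taf1d (-4.55) and Gm23301 of Rpl17 (-4.48). The lowest C/D box member after Snord14d and Snord14c was Snord92 of Wdr43 (-4.27). Highest without a class were Gm24044 of Rpsa, at 0.0795 to 4.45 CPM in macrophages and 28.4 to 93.5 CPM in tumors (4.22 ± 1.61, SD over 4 mice), and Gm23451 of Top2a, at 0 to 3.82 CPM and 19.8 to 56.0 CPM (4.18 ± 1.75), whose order turned on the protein-coding scale (4.89 and 4.94), and then Gm24698 of Champ1 (3.06). Among H/ACA box RNAs, Snora34 of Kansl2 (3.22 ± 2.35, SD over 4 mice), Snora3 (3.14 ± 0.64) and Snora69 (2.01 ± 1.22) were highest, and Snora52 of Rplp2 (-2.63 ± 1.03), Snora24 of Snhg8 (-2.17 ± 0.20) and Snora9 of Snhg15 (-2.11 ± 0.72) lowest. The ratios of Gm23451, Snora34, Snora69 and Snora52 rest on at least 1 library listed at 0 and depend on the pseudocount of 1.

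The ratio also varied with annotated length, and length and class overlap. Members of up to 79 bases (48 rows) had a median log2 ratio of -2.07, those of 80 to 99 bases (35) -1.93, those of 100 to 129 bases (11) -0.97, those of 130 to 149 bases (43) 0.27 and those of 150 bases or more (18, including the 11 U3 rows) 1.46. Across the 155 members Spearman's rho of length and ratio was 0.55 and Pearson's r 0.52. These members share the same libraries and are no replicates. Over the 144 members without U3, rho was 0.47 and r 0.43. Within the 2 named classes the relation was smaller, with rho 0.20 over 49 C/D box members without U3 and -0.17 over 21 H/ACA box members. Over the 74 members without a class it was 0.48, near the value for all members without U3. At 130 to 149 bases, where classes can be set side by side, the 4 C/D box members had a median of -1.82, the 18 H/ACA box members 0.91 and the 21 members without a class 0.29. Whether fragment length or class moved the levels was not tested.

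**Figure D2:**
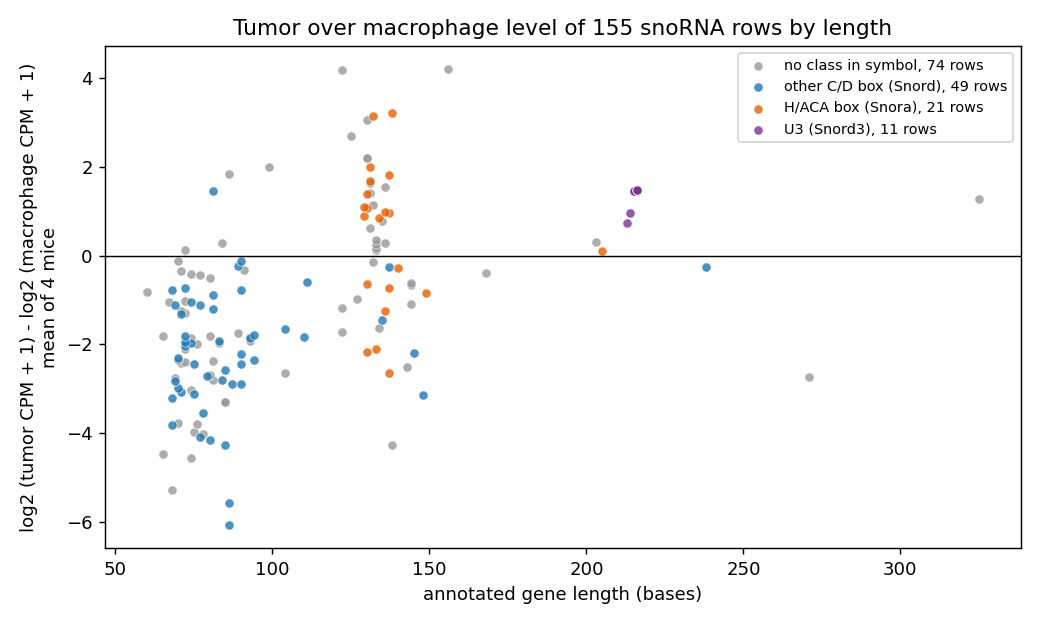
Log2 ratio of tumor to macrophage level (y axis, mean of 4 mice, CPM + 1) against annotated gene length in bases (x axis) for the 155 members of both tables, colored by class. Most C/D box members lie below 0 at lengths under 100 bases, H/ACA box members lie on both sides of 0 near 130 bases, and the U3 rows lie between 0.73 and 1.48 near 215 bases.

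The listed levels of host genes did not track those of their snoRNAs closely. Over 135 members with a host of measured level, without U3, Spearman's rho of the log2 tumor to macrophage ratio between host and member was 0.22. The median over 80 hosts was -0.53. RNAs cut from 1 host often lay far apart. The 3 rows of Rpl4 ranged from -5.28 to 2.00 around a host ratio of -1.71, and the 3 of Taf1d from -4.55 to 1.63 around -0.14. The 3 rows of Rpsa, which encodes a small-subunit protein, ranged from -0.85 to 4.22, all above the host at -1.19. In Rps12 the H/ACA box RNA Snora33 stood at 0.91 and the C/D box RNA Snord100 at -1.96, around a host ratio of 0.06. Some hosts were listed low: Rps12 at 16.3 ± 5.01 CPM in macrophages (SD, n = 6) and 14.8 ± 5.48 CPM in tumors (SD, n = 4). Rpsa was at 46.6 ± 15.9 and 23.1 ± 2.50 CPM, whereas Rpl4 was at 725 ± 141 and 218 ± 8.33 CPM. Ratios of low hosts are imprecise, and the part of this in the weak relation was not tested.

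In other families all rows lay on 1 side of the host. The 3 rows of Zfas1 lay between -2.21 and -1.74, and the Rpl13a RNAs Snord32a, Snord34 and Snord35a, which are known from responses to lipid-induced stress, between -2.97 and -1.93, each family below its host (-0.36 and -1.17). Both hosts were listed at low levels. Zfas1 was at 19.1 ± 7.25 CPM in macrophages and 14.5 ± 4.62 CPM in tumors (SD), and Rpl13a at 55.3 ± 19.4 and 27.1 ± 9.17 CPM. Snord33, the other named RNA of Rpl13a, was a member in macrophages only, at 10.3 CPM. Levels within a host also spread: the 8 Gas5 rows spanned 17.6 to 4399 CPM in macrophages and the 5 of Snhg1 4.15 to 586 CPM.

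**Figure D3:**
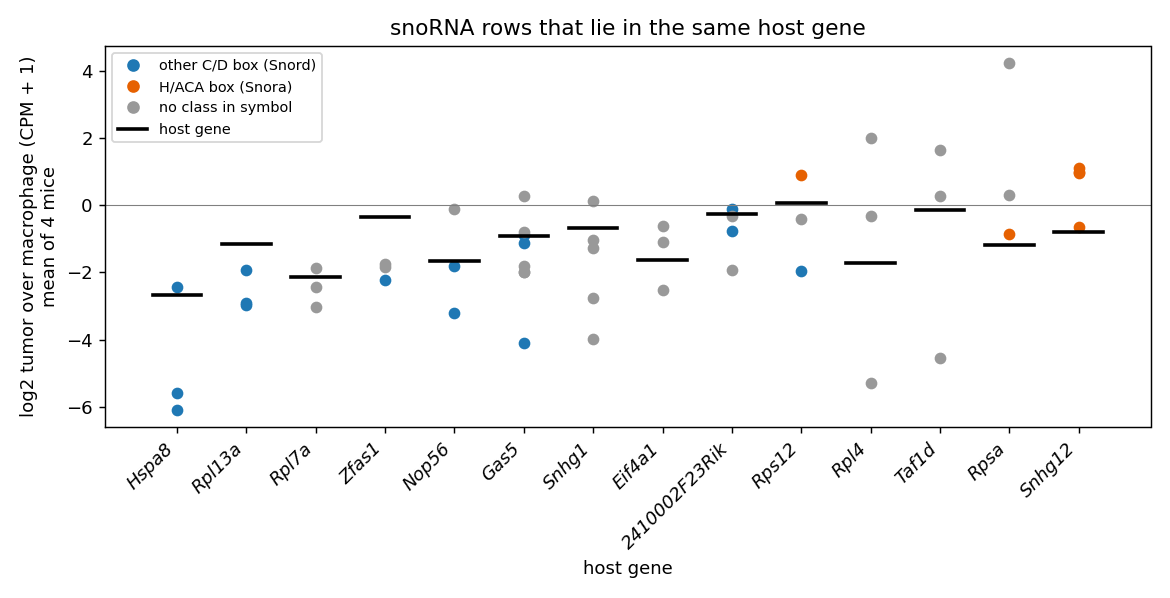
Log2 ratio of tumor to macrophage level (y axis, mean of 4 mice) for snoRNA rows that share a host gene (x axis, 14 of the hosts with 3 or more rows, without U3), with the host's own ratio as a black bar. The U14 rows of Hspa8 reach -6.08, while the rows of Rpl4 and Taf1d lie on both sides of their hosts and those of Rpsa above theirs.

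In macrophages labelled cKO most members stood below the controls, but by less than the test could call. No member passed the adjusted threshold of 0.05 (0 of 208, background 0% of 16304 genes, limma, lowest adjusted p = 0.9998), and 31 had an unadjusted p under 0.05, all of them lower in cKO (background 1.09% lower and 1.53% higher). This count was 11 without control 775, 15 without cKO 746, 16 without cKO 867, 46 without cKO 725, and 9 when eBayes had no trend. The share of all genes under these settings is not given here, so these counts cannot be set against a background. The log2 difference was below 0 for 162 of 208 members (background 45.3%). Its median was -0.39 for the 82 C/D box members with U3 included, -0.47 for the 71 without U3 and -0.29 for the 25 H/ACA box members, beside 0.05 for all genes. Every cKO library lay below every control in 17 members (8.17%, background 3.45%) and above in 1 (background 3.78%). The count below was 40 without control 706 (background 6.99%), 65 without control 720 (7.56%), 68 without cKO 725 (6.22%) and 26 without cKO 746 (7.68%). Without control 775 it was 19, a share of 9.13% that lay under the background of 9.64%. Rescaled to protein-coding reads, the count below was 14 (6.73%, background 4.47%).

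The libraries within a group were not alike. Relative to the control mean, the median over all members was 0.01 in cKO 725, -0.70 in cKO 746 and -0.57 in cKO 867, and -0.13, -0.21 and 0.41 in controls 706, 720 and 775. CKO 725 thus stood at the control mean, and control 775 above all others. Without control 775 the C/D box median, with U3 included, was -0.16, without cKO 746 it was -0.17, without control 706 it was -0.61 and without cKO 725 it was -0.68. The H/ACA box median was 0.0036 without cKO 867, -0.05 without control 775, -0.17 without control 706 and -0.66 without control 720, so its direction rested on single libraries. The median was -0.31 for 27 snRNAs and -0.52 for 13 scaRNAs, which guide modification of snRNAs. In control 775 the macrophage markers were lowest, protein-coding genes took the smallest share (67.7%) and snRNAs the largest (6.76%) of the 6 libraries. The 6 fibroblast markers summed to 422 CPM in control 775 and 1165 CPM in cKO 867, against 57.2 to 137 CPM in the others, with Lum at 0 in control 706. The part of these differences in the snoRNA levels was not tested.

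**Figure D4:**
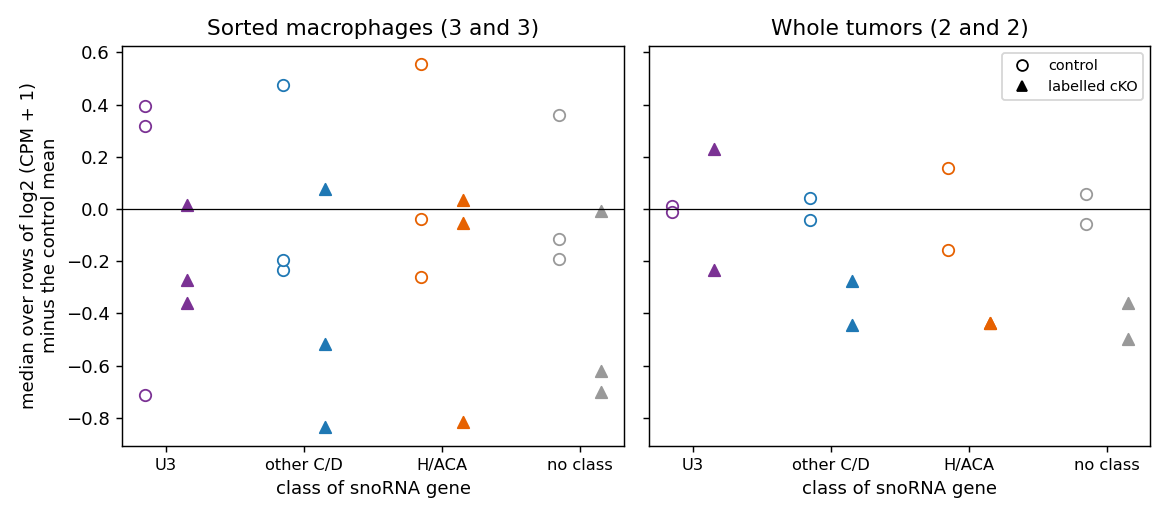
Median over members of the log2(CPM + 1) difference from the control mean (y axis) for each library, by class (x axis); open circles are controls and filled triangles libraries labelled cKO. In macrophages cKO 725 lies near 0 in every class and cKO 746 and 867 lie lower in most, while in tumors both cKO libraries lie below both controls in every class except U3.

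Macrophage members with separate groups and the lowest p above 5 CPM were Gm23301, Gm23201, Gm22680 and Gm24134, all lower in cKO. Gm23201, a C and D box RNA of Zfas1, was at 1955, 1491 and 1801 CPM in controls 706, 720 and 775 and at 1020.4, 925 and 629 CPM in cKO 725, 746 and 867. Its log2 difference was -1.05 (SE 0.29, 95% interval -1.64 to -0.45, limma adjusted p = 0.9998). Gm23301 averaged 77.7 ± 4.34 CPM in controls against 34.6 ± 7.24 CPM in cKO (SD, n = 3 each), a log2 difference of -1.16 (SE 0.29) with the same adjusted p. Gm22680 of Snhg1 ranged from 104 to 340.5 CPM in controls and from 38.2 to 91.8 CPM in cKO (-1.32, SE 0.38), and Gm24134 of Rpl7a at 177 to 358 and 89.4 to 166 CPM (-0.92, SE 0.30). The gap between groups was thus narrow for Gm22680 and Gm24134 and wide for Gm23301. The difference of Gm22680 was -0.78 without control 706, and that of Gm24134 -0.59 without control 775.

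Tumors labelled cKO showed lower levels for most members other than U3. None of 164 members passed the adjusted threshold (background 0% of 14630 genes, limma, lowest adjusted p = 0.602), and 25 had an unadjusted p under 0.05, all lower (background 1.95% lower and 3.9% higher). This count was 6 without control 720 and 10 without cKO 725, for which the share of all genes is not given here. The log2 difference was below 0 for 137 members (83.5%, background 43.4%). Both cKO tumors lay below both controls in 77 members (47.0%, background 14.3%) and above in 5 (3.05%, background 21.2%). By class this held for 0 of 11 U3 rows, 26 of 49 other C/D box members, 8 of 23 H/ACA box members and 43 of 81 members without a class. The median log2 difference was -0.01 for U3, -0.37 for other C/D box members, -0.38 for H/ACA box members and -0.47 for members without a class, beside 0.09 for all genes. With 2 libraries a group, the H/ACA box median moved from -0.79 without control 706 to -0.13 without control 720.

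As shares of listed reads, C/D box members other than U3 held 0.809% ± 0.081 in control tumors and 0.630% ± 0.0075 in cKO tumors (SD, n = 2 each), without overlap, and U3 held 11.004% ± 0.022 and 11.1% ± 2.37, with overlap. Rescaled to protein-coding reads, 90 of 164 members had both cKO tumors below both controls (background 19%). The median log2 difference was -0.44 for 27 snRNAs and 0.22 for 11 scaRNAs. The 6 fibroblast markers summed to 331 and 445 CPM in cKO tumors and 595 and 704 CPM in controls, and the 8 macrophage markers to 84.7 and 92.1 against 92.8 and 96.0 CPM. The part of these cells and of the snRNA share in the snoRNA differences was not tested.

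The named tumor members were Gm25878, Gm23451, Gm26135 and Snord50a, all lower, and Gm54509, higher. They too were chosen for separate groups and the lowest p, so a gap between their groups was part of the choice. Gm25878 of Zfas1 was at 907 and 994 CPM in controls 706 and 720 and 525 and 611 CPM in cKO 725 and 746, a log2 difference of -0.74 (SE 0.17, 95% interval -1.10 to -0.39, limma adjusted p = 0.602). Gm23451 of Top2a had 51.7 and 56.0 CPM in controls 706 and 720 against 21.7 and 19.8 CPM in cKO 725 and 746 (-1.34, SE 0.31, adjusted p = 0.602), a gap wider than the spread within either group. Snord50a had 654 and 799.6 CPM in controls against 310.0 and 498 CPM in cKO (-0.88, SE 0.21), and Gm26135, which has the Snord50b sequence and shares 25 bases with Snord50a, gave -0.88 (SE 0.21), so these rows of the Snord50 family are no independent observations. Without cKO 725 they gave -0.54 and -0.53. Gm54509 had 23.7 and 28.5 CPM in controls against 30.4 and 39.6 CPM in cKO (0.40, SE 0.33, adjusted p = 0.878), and its difference was 0.22 without cKO 746.

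**Figure D5:**
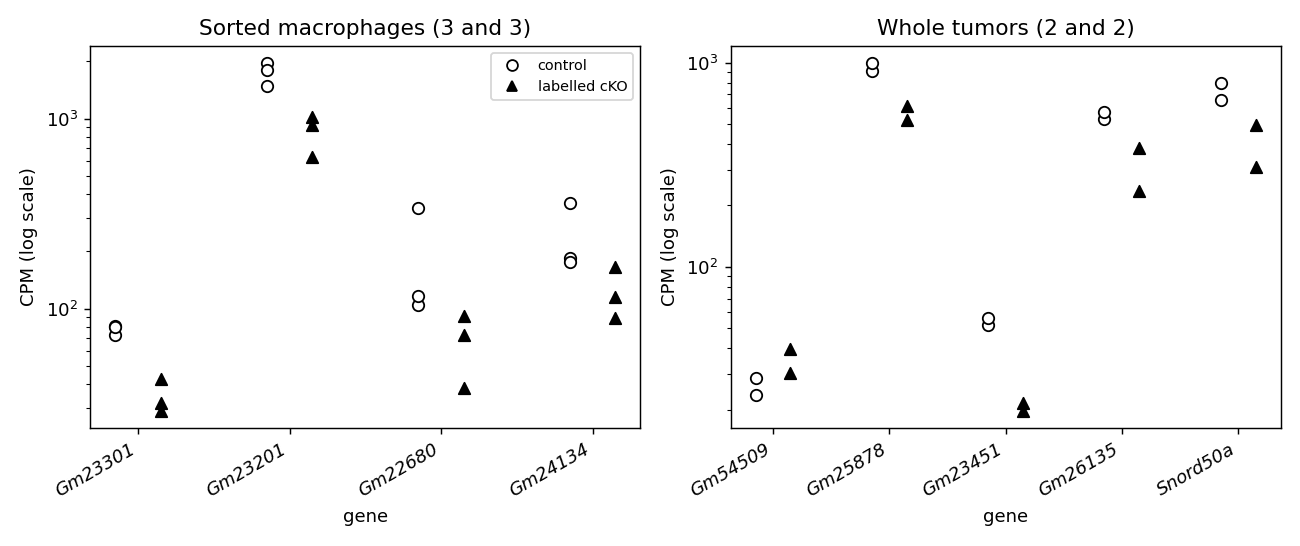
Level in CPM (y axis, log scale) of the members named for the comparison of cKO (filled triangles) with control (open circles), one point per library, in macrophages (left, 3 and 3) and tumors (right, 2 and 2). Groups are separate for each gene because separation was part of the choice, and none passed the adjusted threshold.

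Of the 155 members of both tables, 8 had every cKO library below every control in both: Gm22680, Gm23201, Gm24134, Gm26202, Gm26247, Snora24, Snord118 and Snord88c (5.16%, background 0.559% of 13783 genes). The tables share 4 mice, so this is no independent repeat. Snora24, an H/ACA box RNA of Snhg8, was at 45.4, 43.5 and 23.4 CPM in control macrophages 706, 720 and 775 and at 20.1, 11.8 and 19.9 CPM in cKO macrophages 725, 746 and 867. The control tumors had 7.55 and 9.77 CPM and the cKO tumors 4.26 and 1.78 CPM. U8 (Snord118) was at 5.21 to 10.3 CPM in control and 2.82 to 3.75 CPM in cKO macrophages, and at 2.22 and 2.92 CPM against 0.0375 and 0.904 CPM in tumors. Its log2 differences were -0.84 (SE 0.66) and -1.34 (SE 0.95), so intervals of both include 0. None of the 155 was above in both tables (background 0.74%).

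None of the protein partners and processing factors passed the threshold. Of 38 listed genes, 37 were tested in macrophages (18 higher, 19 lower) and 36 in tumors (16 higher, 20 lower) (limma, lowest adjusted p = 0.9998 and 0.819). Fibrillarin (Fbl), the methyltransferase of C/D particles, was at 6.79 ± 3.87 CPM (SD, n = 6) in macrophages and 1.48 ± 1.64 CPM (SD, n = 4) in tumors, and its partner Nop58 at 45.6 ± 14.0 and 45.5 ± 7.06 CPM. Dyskerin (Dkc1), the pseudouridine synthase of H/ACA particles, was at 12.4 ± 5.04 and 15.8 ± 1.81 CPM. The largest tumor differences by size were those of Nhp2, an H/ACA core protein (8.003 ± 1.27 CPM in controls and 1.04 ± 0.59 CPM in cKO, log2 difference -2.17, SE 0.80, adjusted p = 0.819), and Mphosph10 of the U3 particle (13.1 ± 0.38 and 2.75 ± 2.62 CPM, -2.11, SE 0.71, adjusted p = 0.819). All 8 assembly factors tested in tumors had a negative difference (median -0.42), against a background of 43.4% of all genes below 0. Shq1 was the most negative (-1.41, SE 0.58), whereas 4 of 9 assembly factors were higher in macrophages. The other roles were mixed in tumors. Higher in cKO were 3 of 4 C/D core genes, 1 of 4 H/ACA core genes and 5 of 8 genes of the U3 particle. So were 4 of 6 genes of the nucleolus and trafficking and 3 of 6 of RNA polymerase I. These counts are of sign only. Of the C/D core genes, Nop58 (3e-05, SE 0.29) and Fbl (0.03, SE 1.06) lay near 0 and Snu13 was at 0.36 (SE 0.35). The largest C/D core difference was the lower level of Nop56 (-1.45, SE 0.63, limma adjusted p = 0.833).

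Precision followed the level. Among macrophage members, the highest library held a median of 4.32 times the lowest at a mean of 1 to 5 CPM (56 members), 3.83 times at 5 to 50 CPM (64) and 2.79 times above 50 CPM (88). In tumors the figures were 2.69 (43 members), 2.18 (62) and 1.51 (59). A library with under 3 reads was found for 31 of the 56 macrophage members of lowest level and 8 of the 43 tumor members. Reads were concentrated: the 10 rows of highest level held 49.8% of member reads in macrophages and 86.4% in tumors. At the threshold itself, Snord64 and Gm22059 (1.01 CPM each) were just inside and Snora65 (0.994 CPM) and Snord45b (0.992 CPM) just outside in macrophages. In tumors the identical copies Gm25632 and Gm22192 (1.08 CPM each) were inside and Gm25636 (0.968 CPM) and Gm22884 (0.966 CPM) outside.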

How the data were processed

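The deposited tables of macrophages and whole tumors hold values on a log2 scale that the authors deposited as normalized counts; 2 to the power of each value, minus 1, sums to 1000000 per library, so each was read as log2(CPM + 1). Per the submitters' processing notes, STAR 2.7.8a, Partek and GRCm38 (mm10) were used; the counting rule for repeated copies is not given in the sources used here. Of the pairs of rows with 1 annotated sequence, Gm24091 with Gm23711 and Gm25632 with Gm22192 have equal values that are not whole reads, while the values of Snord50a and Gm24463 differ. Of low values, 84.5% to 88.7% were whole reads within 0.1 read, so no count test was run. Positions in the tables differ from GRCm38 (2.19% and 2.29% of starts equal), so places and sequences come from GENCODE vM21 by identifier (177 members) or by symbol and length (26); 14 had no match. Classes come from the symbol only. Some hosts and their snoRNAs are not reported here.

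Each table was fitted with limma 3.58.1 in R 4.3.3 (eBayes with a trend) on the deposited values, cKO minus control, two-sided, over genes of mean 1 CPM or more (16304 and 14630), with Benjamini-Hochberg adjustment; fold changes on this scale understate those of low genes. Nothing says whether samples shared a preparation, so p-values measure only the spread between these mice. Tables were not tested against each other; levels were set side by side within the 4 shared mice. On simulated data with the spread of the real genes, the fit recovered 15%, 72.5% and 92.5% of genes changed 2-, 4- and 8-fold in the macrophage design and 22%, 67.5% and 87.5% in the tumor design. The changed genes were drawn only from those at about 5 CPM or more, with noise independent between genes. Recovery of members below that level, or under shifts of whole libraries, was not simulated. The worth of 3 reads, the limit that a value of 0 allows, was 0.119 to 0.209 CPM in macrophages and 0.0562 to 0.0877 CPM in tumors, for counting error only. Named genes are the members of highest level per class, those of lowest p with separate groups at 5 CPM or more, a list by role, the extremes of the tumor to macrophage ratio, the neighbors of the threshold, and factors of a pathway list. Alternatives were pseudocounts of 0.1 and 5, other filters, rescaling (protein-coding total, TMM factors or median-ratio factors), a fit whose eBayes step had no trend, and leaving out 1 library at a time. Members, lists and rules were chosen with earlier results of these data known. Python 3.11.15 was used for the rest.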

Additional observations from a re-analysis of the deposited data

Results flagged for a closer look

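Gm22748, an RNA of 136 bases in an intron of Odc1 whose symbol names no class, differed in direction between the tables. Every cKO library was above every control in macrophages (3.25, 3.45 and 3.50 CPM against 1.46, 1.42 and 1.87 CPM), and both cKO libraries were below both controls in tumors (1.42 and 1.27 CPM against 4.71 and 7.08 CPM). The log2 difference was 0.77 (SE 0.74) in macrophages and -1.53 (SE 0.81) in tumors (0.35 and -0.77 with a pseudocount of 5), and the first minus the second was 2.30. The difference between the tables was not tested, since they were normalized apart, and both levels are low.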

How the results depend on the processing

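No member passed the threshold under any alternative tried, in either table. No paired analysis was possible because cKO and control mice share no number, and the tables that do share mice were normalized apart. C/D box medians of the difference between cKO and control are given in this section with U3 included. The tumor C/D box median over 60 such rows (-0.27) was -0.20 with a pseudocount of 5, -0.39 on the protein-coding total, -0.34 with TMM and -0.35 with median-ratio factors. Leaving out each library in turn gave -0.68 to -0.16 for the macrophage C/D box median, -0.66 to 0.0036 for H/ACA (reversed without cKO 867), -0.31 to -0.24 for the tumor C/D box and -0.79 to -0.13 for H/ACA. Macrophage members with every cKO library below every control (main 17) numbered 14 on the protein-coding total (6.73%, all genes 4.47%). With TMM factors they numbered 13 (6.25%, all genes 3.71%), and with median-ratio factors 13 (6.25%, all genes 3.83%). With 1 library left out they numbered 19 to 68, with 40 without control 706, 65 without control 720, 68 without cKO 725 and 26 without cKO 746, against 6.22% to 9.64% of all genes. Without control 775 the share of members (9.13%) was under that of all genes (9.64%). In tumors such members numbered 96 to 111 with 1 library left out (main 77), against 26.3% to 31% of all genes. Fewer libraries make separation easier by construction. The tumor to macrophage median of all members was -1.72 over the 94 for which no 25 bases shared with another snoRNA gene were found (main -1.11). Members other than U3 without an annotated sequence were counted as sharing none. With each mouse left out the median was -1.24 to -0.75 for all members and -2.25 to -1.74 for C/D box members without U3. For H/ACA it was 0.80 to 1.05 and for U3 1.29 to 1.65. On the protein-coding total it was 1.44 for H/ACA and 2.01 for U3. For U3 no median over members without shared bases exists, because its copies all share 25 bases. The cause of these shifts was not tested. The other 107 values, and all 140 for single named members, kept direction and side of the threshold, though not size: Gm22680, Gm24134, Snord50a, Gm26135 and Gm54509 moved by over 1.5 times without 1 library, and Gm22748 with a pseudocount of 5 (0.35 in macrophages, -0.77 in tumors). Members with an unadjusted p under 0.05 numbered 9 to 46 in macrophages (main 31) and 6 to 37 in tumors (main 25) over all alternatives. The share of all genes under each alternative is not given here, so whether the change is particular to the members cannot be told. Depth limits members under 5 CPM most, since single reads are worth up to 0.0696 CPM.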
